A study of Mus musculus with 15 samples.

Results

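The genes described here are 46 genes of the lysosome, picked by symbol from the 56832 genes in the count table. They were chosen with earlier results of these data known. All 46 were among the 17204 genes with enough counts to be tested. They comprise 12 proteases, 16 glycosidases and sulfatases, 8 proteins of lipid and nucleic acid breakdown, and 10 membrane proteins and regulators. The question was how TauT loss moves each of them, and how far any rise goes with macrophage genes such as Adgre1 and Csf1r. Expression was measured by bulk RNA-sequencing of bone marrow mesenchymal stromal cells (MSCs) grown from long bones of 16 week old mice on a C57BL/6J background. TauT+/+ cells (WT in the labels) were compared with TauT-/- cells (KO), which lack the taurine transporter encoded by Slc6a6 in every tissue and not only in stroma. By label there were 4 male and 3 female TauT+/+ libraries, and 4 male and 4 female TauT-/- libraries. All cells were cultured in MEM alpha with 15% serum and were depleted of CD45+ cells, so a leukocyte marker was used to remove blood cells from both genotypes. The methods also describe removal of Ter119+ erythroid and CD31+ endothelial cells. The labels do not say whether each library is a separate mouse or culture, and the p-values measure only the spread between these libraries.

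Lysosomes are the acidic compartments in which cells take apart proteins, sugars, lipids and nucleic acids. Proteases, glycosidases, sulfatases and lipid hydrolases work in the lumen, heavily glycosylated proteins such as LAMP1 line the membrane, and the transcription factor TFEB drives many of these genes together through a DNA element built on the E-box CACGTG. Every nucleated cell holds lysosomes, and macrophages, which digest what they engulf, are especially rich in them. In bulk libraries, more cells of a type and more RNA per cell cannot be told apart.

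Letters of that element occurred in the promoters of some of these genes. In RefSeq promoter windows of GRCm38.p6, which run from 250 bases before to 50 bases after each start site, the letters TCACGTG were looked for on both strands. They occurred in 12 of the 41 members with a window (29.3%), in 6.53% of the 11872 tested genes with a window, and in 4.29% of the 27025 genes in the promoter table. The shorter CACGTG, which every match of the longer one contains, occurred in 31.7% of the members and 11.3% of the tested genes, and the palindrome TCACGTGA in 12.2% and 2.01%. Lamp1 held the most matches, Mcoln1 and Gla are shown as members with 2 each, and Glb1 and Lgmn as the members with a match that also rose in the comparison of the genotypes. The following stretches show these matches in capitals with up to 30 bases on either side, cut at the start site or at the edge of the window, 5′ to 3′ along the gene's own strand.

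Lamp1, chr8:13159069-13159160, plus strand: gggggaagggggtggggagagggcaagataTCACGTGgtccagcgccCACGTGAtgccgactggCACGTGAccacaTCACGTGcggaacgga

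Mcoln1, chr8:3500417-3500510, plus strand: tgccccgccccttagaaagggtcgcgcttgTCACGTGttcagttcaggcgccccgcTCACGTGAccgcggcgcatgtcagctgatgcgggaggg

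Gla, chrX:134601163-134601255, minus strand: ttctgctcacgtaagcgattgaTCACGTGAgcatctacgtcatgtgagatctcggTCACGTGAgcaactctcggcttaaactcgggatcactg

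Glb1, chr9:114400999-114401065, plus strand: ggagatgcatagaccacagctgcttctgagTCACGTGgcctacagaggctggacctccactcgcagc

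Lgmn, chr12:102439106-102439172, minus strand: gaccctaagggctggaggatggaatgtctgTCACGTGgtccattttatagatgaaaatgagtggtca

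In Lamp1, 4 matches lay between 62 and 10 bases before the start site. In Lgmn the match was in 1 of the 2 windows of the gene. The other members with a match were Arsa, Cln3, Ctsa, Ctsd, Gaa, Naglu and Sgsh. A match is a description of these letters and not a bound site, and a window without one says nothing of the factor. Npc1 and the other 4 members without a window (Ctsb, Ctsh, Napsa and Asah1) were not searched.

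Some libraries stood apart before any lysosomal gene was looked at. Total counts ran from 69764291 to 101575071 in the 8 male-labelled libraries and from 12761107 to 20781070 in the 7 female-labelled ones. Slc6a6, the gene that was knocked out, had 592 to 2591 CPM (counts scaled by library size, median 1712) in TauT+/+ and 401 to 1521 CPM (median 747) in TauT-/- libraries, so the genotypes overlapped (log2 fold change −0.97, edgeR adjusted p = 0.125). In 3 libraries Xist and Ddx3y went against the sex label (TauT+/+ male 1, TauT-/- male 1 and TauT+/+ female 3). TauT+/+ male 1 and female 1 were nearly identical, as were TauT-/- male 1 and female 1. The scaled median absolute deviation of their log2 ratios over genes was 0.130 and 0.120. It was 0.309 for the next closest pair, TauT+/+ male 3 and TauT-/- male 3. Results are given with all 15 libraries as labelled. The main counts and slopes are also given without libraries of the near-identical pairs or those that go against the label.

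Stromal genes were abundant, with a summed level of 34872 to 51749 CPM over 14 genes in TauT+/+ and 7410 to 48004 CPM in TauT-/- libraries, but macrophage genes were present as well. The 26 macrophage genes summed to 1664 to 10920 CPM (median 9815) in TauT+/+ and 7924 to 25500 CPM (median 18789) in TauT-/- libraries. Ptprc, which encodes CD45, had a mean of 123 CPM in TauT+/+ and 234 CPM in TauT-/- libraries. The T cell genes Cd3e, Cd3g and Cd8a had 0 counts in all libraries, the 10 neutrophil genes summed to between 3.46 and 83.0 CPM, and the 10 osteoclast genes to between 131 and 943 CPM.

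Over the 15 libraries, lysosomal genes leaned upwards in TauT-/- MSCs. As the members were chosen with earlier results of these data known, the shares given here describe them and do not test the set. 7 of the 46 rose past an adjusted p of 0.05 and 0 fell: the proteases Ctss, Lgmn, Napsa and Tpp1, the glycosidases Glb1 and Man2b1, and the nuclease gene Dnase2a. Among all 17204 genes tested, 0.546% were called higher and 0.75% lower by the same edgeR quasi-likelihood test, which held the sex label and the genotype. Positive fold changes were found for 38 members and negative ones for 8. Their median log2 fold change was 0.49, from −0.36 (Ctso) to 3.15 (Napsa), against −0.02 over all genes tested. Without adjustment 29 members were higher and 0 lower at a p under 0.05, where 10.6% and 13% of all genes were. DESeq2 called 23 members higher and 0 lower, against 5.65% and 6.43% of all genes. 7 members had every TauT-/- library above every TauT+/+ library (Lgmn, Napsa, Tpp1, Hexa, Man2b1, Dnase2a and Lamp1) and 0 had every one below, where 0.692% and 0.436% of all genes did.

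**Figure D1:**
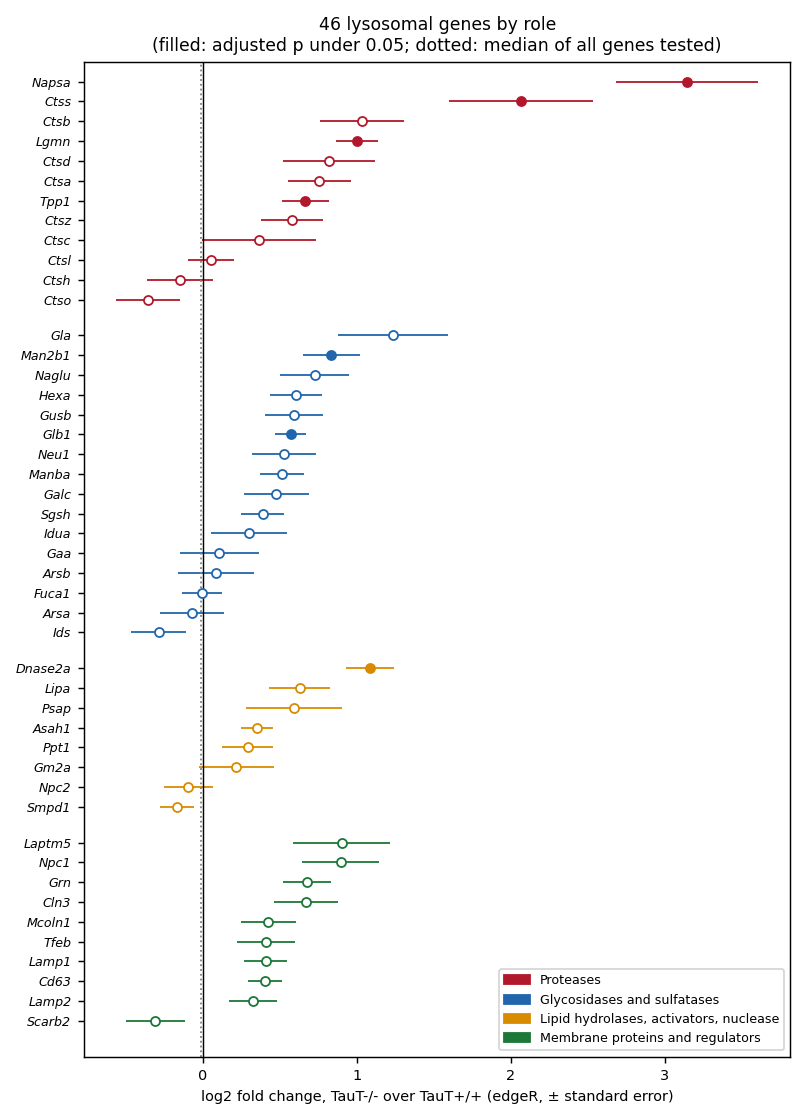
Each point is the edgeR log2 fold change of TauT-/- over TauT+/+ MSCs (x axis) of 1 of the 46 genes (y axis), grouped by role, with its standard error (SE) as a bar. Filled points are the 7 genes past an adjusted p of 0.05, 38 points lie right of 0, and the dotted line is the median of all 17204 genes tested (−0.02).

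Fewer members were called by edgeR when libraries of the near-identical pairs were left out. Fewer of all genes were called as well, and leaving out some other single libraries also lowered the calls. Whether the pairs themselves account for the drop was not tested. With the male-labelled library of each pair left out, Dnase2a alone of the members was called higher (0.0139% of all genes). With the female-labelled libraries left out instead, Napsa, Dnase2a and Lgmn were called (0.0399%). Without the 3 libraries whose sex-linked genes go against the label, 0 of 46 members and 0% of all genes were called. At an unadjusted p under 0.05 these fits of 13, 13 and 12 libraries had 28, 29 and 28 members higher (10.5%, 10.7% and 9.94% of all genes). The median log2 fold change of the members was 0.51, 0.53 and 0.56. These medians were no lower than over 15 libraries, while fewer members were called.

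When each library was left out in turn, 3 to 10 members were called higher and 0 lower. The number called higher among all genes moved as well. It ran from 8 of 17131 (3 members, without TauT-/- female 3) to 476 of 15966 (10 members, without TauT+/+ male 3). Napsa, Dnase2a and Lgmn were called in all 15 of these fits, with adjusted p up to 0.0439 for each. Ctss was lost in 13 of them, Man2b1 and Tpp1 in 11 each, and Glb1 in 6. TauT-/- female 4 held the highest value of 28 of the 46 members and TauT+/+ male 2 the lowest of 21. The same counts were not made over all genes, so they may describe these libraries and not the lysosomal genes. Without TauT-/- female 4, 4 members were called (37 of 17061 genes higher), and the members' median log2 fold change was 0.40. Without TauT+/+ male 2, 3 members were called (12 of 16001 genes higher) and the median was 0.45.

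Among the proteases, 10 of 12 had a positive fold change, 4 passed the threshold, and the median log2 fold change was 0.71. Lgmn encodes legumain, which cuts proteins after asparagine, and spans 102359122 to 102414682 of chromosome 12 in GRCm39 (coordinates from GENCODE M39). It had 174 to 257 CPM (median 233) in TauT+/+ and 330 to 682 CPM (median 388) in TauT-/- libraries. The genotypes did not overlap, and the highest level was in TauT-/- female 4. Its log2 fold change was 1.00 ± 0.14 (standard error, SE, edgeR adjusted p = 0.0112).

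Napsa encodes napsin A, an aspartic protease best known from lung and kidney (44221804 to 44236295 of chromosome 7, GRCm39). It was the least expressed of the 46 genes per kilobase of exon in TauT+/+ MSCs, and had 0.367 to 1.84 CPM (median 1.05) there and 2.88 to 18.5 CPM (median 9.50) in TauT-/- libraries. The genotypes again did not overlap, and the lowest TauT-/- values were those of male 1 and female 1. The log2 fold change was 3.15 ± 0.46 (SE, edgeR adjusted p = 0.0152), the largest of the 46.

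Ctss encodes cathepsin S, which trims the invariant chain of MHC class II molecules in antigen-presenting cells (95433963 to 95463717 of chromosome 3, GRCm39). It had 36.9 to 316 CPM (median 194) in TauT+/+ and 271 to 2503 CPM (median 672) in TauT-/- libraries. Here TauT-/- male 1 and female 1, at 271 and 287 CPM, fell within the TauT+/+ range, and the other 6 TauT-/- libraries lay above it. The log2 fold change was 2.07 ± 0.47 (SE, edgeR adjusted p = 0.0467).

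Tpp1, the tripeptidyl peptidase lost in a form of Batten disease (105394018 to 105401481 of chromosome 7, GRCm39), had 145 to 179 CPM (median 161) in TauT+/+ and 181 to 427 CPM (median 247) in TauT-/- libraries. The gap between the genotypes was narrow, with TauT-/- male 2 only just above the highest TauT+/+ library. Its log2 fold change was 0.66 ± 0.15 (SE, edgeR adjusted p = 0.0497).

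The most abundant proteases per kilobase did not pass the threshold by edgeR. Ctsb, the cysteine protease cathepsin B, had 908 to 2483 CPM (median 2144) in TauT+/+ and 2337 to 8786 CPM (median 3760) in TauT-/- libraries, and 7 of the 8 TauT-/- libraries were above every TauT+/+ library (log2 fold change 1.03 ± 0.27 SE, edgeR adjusted p = 0.0646, DESeq2 adjusted p = 0.00377). Ctsd, the aspartic protease cathepsin D, had 495 to 1631 and 995 to 3987 CPM, with 5 TauT-/- libraries above the TauT+/+ range (log2 fold change 0.82 ± 0.30 SE, edgeR adjusted p = 0.124). Ctsa, the carboxypeptidase that shields β-galactosidase and neuraminidase, had a log2 fold change of 0.76 and Ctsz, another carboxypeptidase, of 0.58. Cathepsin genes were not uniform. Ctsc had 37.3 to 246 CPM in TauT+/+ and 118 to 361 CPM in TauT-/- libraries, with a median of 214 CPM in both (log2 fold change 0.36, edgeR adjusted p = 0.578). Ctsl had a log2 fold change of 0.05, and Ctsh and Ctso had −0.15 and −0.36. Ctso had 31.2 to 89.9 CPM (median 64.7) in TauT+/+ and 34.4 to 63.0 CPM (median 44.7) in TauT-/- libraries, which overlapped widely (edgeR adjusted p = 0.315).

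**Figure D2:**
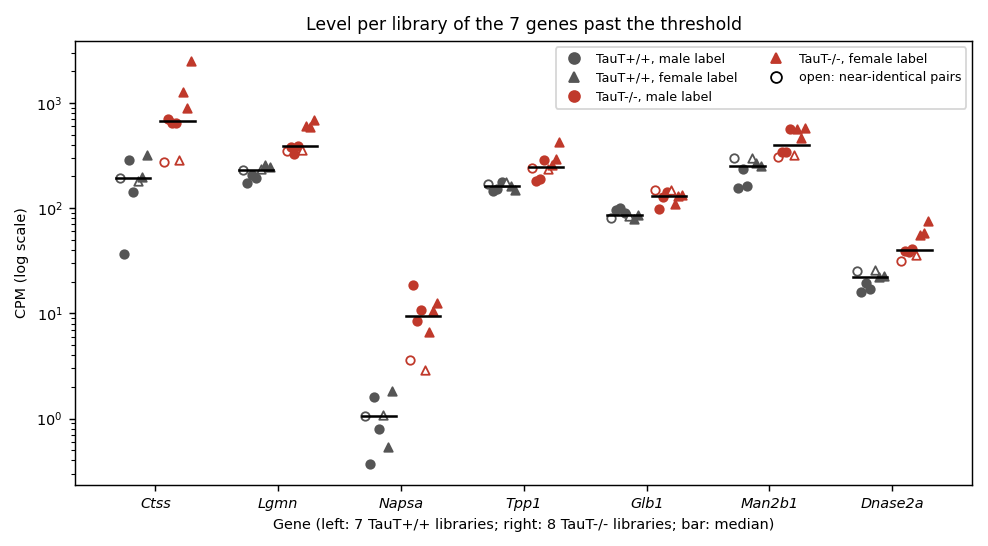
Level of the 7 genes past the threshold in each library, as CPM on a log axis. Grey points are 7 TauT+/+ and red points 8 TauT-/- libraries, circles carry the male and triangles the female label, open symbols mark the near-identical pairs, and bars are medians. Genotypes overlap for Ctss and Glb1 and are apart for the other 5 genes, and the open red symbols are the lowest TauT-/- libraries for Napsa (3.58 and 2.88 CPM).

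Sugar-cleaving enzymes were the largest group, with 13 of 16 fold changes positive, 2 past the threshold and a median log2 fold change of 0.49. Glb1 encodes β-galactosidase, whose activity is used as a stain for senescent cells (114230144 to 114303966 of chromosome 9, GRCm39). It had 78.5 to 99.4 CPM (median 85.8) in TauT+/+ and 99.0 to 150 CPM (median 131) in TauT-/- libraries. TauT-/- male 2, at 99.0 CPM, was the 1 library that fell within the TauT+/+ range, and the near-identical TauT-/- male 1 and female 1 had the highest levels. Its log2 fold change was 0.57 ± 0.10 (SE, edgeR adjusted p = 0.0293). In the fits of 13, 13 and 12 libraries its edgeR adjusted p ran from 0.0771 to 0.152.

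Man2b1 encodes the α-mannosidase of N-glycan breakdown (85809885 to 85825361 of chromosome 8, GRCm39). Levels were 157 to 300.1 CPM (median 252) in TauT+/+ and 306 to 576 CPM (median 400.4) in TauT-/- libraries, so the genotypes lay apart by a small margin. The log2 fold change was 0.83 ± 0.19 (SE, edgeR adjusted p = 0.045).

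Hexa, the α subunit of β-hexosaminidase, had 282 to 339 CPM (median 309) in TauT+/+ and 347 to 814 CPM (median 433) in TauT-/- libraries. Its genotypes did not overlap either, but the test did not pass (log2 fold change 0.60 ± 0.17 SE, edgeR adjusted p = 0.0725). Gla, α-galactosidase A, had the largest fold change of the group and did not pass (log2 fold change 1.24 ± 0.36 SE, edgeR adjusted p = 0.0781). It ranged from 23.3 to 45.6 CPM in TauT+/+ and from 40.8 to 301 CPM in TauT-/- libraries. The highest of these, TauT-/- female 4, was far above the next, TauT-/- female 3, at 92.2 CPM. Gusb, β-glucuronidase, had 142 to 349 CPM (median 276) in TauT+/+ and 305 to 508 CPM (median 363) in TauT-/- libraries (log2 fold change 0.59, edgeR adjusted p = 0.0937). Naglu, Neu1, Manba, Galc, Sgsh and Idua had log2 fold changes from 0.30 (Idua) to 0.72 (Naglu). The glycogen-splitting Gaa stood near 0 at 0.11, as did the arylsulfatases Arsb at 0.08 and Arsa at −0.07 and the fucosidase Fuca1 at −0.01. Ids, the iduronate sulfatase, had 79.4 to 160.03 CPM (median 96.7) in TauT+/+ and 65.1 to 129 CPM (median 87.4) in TauT-/- libraries (log2 fold change −0.29, edgeR adjusted p = 0.341).

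Of the 8 genes of lipid and nucleic acid breakdown, 6 had a positive fold change, 1 passed the threshold and the median log2 fold change was 0.32. Dnase2a encodes DNase II, which digests the DNA of engulfed nuclei (85635189 to 85649544 of chromosome 8, GRCm39). It had 16.02 to 25.7 CPM (median 22.3) in TauT+/+ and 31.4 to 75.9 CPM (median 40.0) in TauT-/- libraries. No TauT-/- library came down to the TauT+/+ range. Its log2 fold change was 1.09 ± 0.15 (SE, edgeR adjusted p = 0.0117).

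Lipa, the acid lipase that frees cholesterol from esters, had 158 to 310 CPM (median 264) in TauT+/+ and 271 to 653 CPM (median 341) in TauT-/- libraries, and 4 of the TauT-/- libraries lay within the TauT+/+ range (log2 fold change 0.63, edgeR adjusted p = 0.0907). Asah1, acid ceramidase, had 193 to 266 and 243 to 357 CPM (log2 fold change 0.35, edgeR adjusted p = 0.0824). Psap, the precursor of the saposins, was the most abundant of the 46 genes per kilobase of exon. Its log2 fold change of 0.59 (edgeR adjusted p = 0.263) leaned on TauT-/- female 4, at 9083 CPM against a TauT-/- median of 2359 CPM, and was 0.25 without that library. Ppt1 and Gm2a had log2 fold changes of 0.29 and 0.22. Npc2, which binds cholesterol in the lumen, stood at −0.10 and Smpd1, acid sphingomyelinase, at −0.17 (edgeR adjusted p = 0.377), and their genotypes overlapped.

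Membrane proteins and regulators had 9 of 10 fold changes positive, a median log2 fold change of 0.42 and 0 past the threshold by edgeR. DESeq2 called 6 of the 10 higher (Lamp1, Npc1, Cln3, Cd63, Laptm5 and Grn). Grn, progranulin, came nearest by edgeR. It had 478 to 779 CPM (median 670.04) in TauT+/+ and 778 to 1461 CPM (median 961) in TauT-/- libraries, with 7 of 8 above the TauT+/+ range (log2 fold change 0.67 ± 0.16 SE, edgeR adjusted p = 0.0513). Lamp1, the main glycoprotein of the membrane, had 911 to 1073 CPM (median 1045) in TauT+/+ and 1120.2 to 2088 CPM (median 1273) in TauT-/- libraries. Its levels did not overlap between the genotypes, although the test did not pass (log2 fold change 0.41 ± 0.14 SE, edgeR adjusted p = 0.108).

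Npc1, which exports cholesterol from the lysosome, lies on chromosome 18 and had 54.0 to 122 CPM (median 108) in TauT+/+ and 113 to 405 CPM (median 168) in TauT-/- libraries (log2 fold change 0.89, edgeR adjusted p = 0.0719). Cd63, a tetraspanin of late endosomes and exosomes, had 346 to 531 and 488 to 663 CPM (log2 fold change 0.40, edgeR adjusted p = 0.0729). Laptm5, a lysosomal membrane protein of blood cells, had 89.0 to 544 and 397 to 1183 CPM (log2 fold change 0.90, edgeR adjusted p = 0.112). Cln3, the gene of juvenile Batten disease, the calcium channel gene Mcoln1, Tfeb and Lamp2 had log2 fold changes from 0.32 (Lamp2) to 0.67 (Cln3). Scarb2, which carries glucocerebrosidase to the lysosome, was the exception, with 110 to 266 CPM (median 123) in TauT+/+ and 87.3 to 148 CPM (median 114) in TauT-/- libraries (log2 fold change −0.31, edgeR adjusted p = 0.344). Its highest value came from TauT+/+ male 2.

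The rise was then set against the macrophage genes. A score was formed from the mean log2 CPM of 25 macrophage genes, none of them a member, and ran from 4.35 to 6.99 in TauT+/+ and from 6.59 to 8.002 in TauT-/- libraries. Of these 25 genes, 24 had a positive fold change and 1 (Cd68, itself a lysosomal membrane protein) passed the threshold, with a median log2 fold change of 0.90. At an unadjusted p under 0.05, 17 of them were higher and 0 lower, where 10.6% and 13% of all genes were. DESeq2 called 11 of them higher, where 5.65% of all genes were. Adgre1, the F4/80 antigen, had 34.4 to 1100.1 CPM (median 256) in TauT+/+ and 137 to 3375 CPM (median 407) in TauT-/- libraries (log2 fold change 0.98, edgeR adjusted p = 0.387). Csf1r, the receptor for macrophage colony-stimulating factor, had 116 to 717 (median 543) and 426 to 1610 CPM (median 861; log2 fold change 0.88, edgeR adjusted p = 0.170). Each member was fitted with labelled sex, genotype and this score. A slope of 1 is a change in proportion to the macrophage list among libraries of the same label, and a slope of 0 is none.

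Lysosomal genes split by this slope. 6 members had a slope past an adjusted p of 0.05, all positive, where 2.63% of all genes had a positive and 0.279% a negative slope called. Ctss at 1.18 (SE 0.23, edgeR adjusted p = 0.0102) and Ctsc at 1.04 (SE 0.17, edgeR adjusted p = 0.0024) changed about in proportion to the macrophage list, as did Laptm5 at 0.92 (SE 0.09, edgeR adjusted p = 8.51e-05). Ctsc encodes the dipeptidyl peptidase that activates granule proteases of blood cells. Gusb (0.44), Galc (0.45) and Man2b1 (0.39) passed with smaller slopes. Napsa had a slope of 0.93 that did not pass (SE 0.28, edgeR adjusted p = 0.123). These 4 members at 0.8 or more were the only ones, and 24 of 46 had a slope within 0.2 of 0. The median slope of the members was 0.15, and it was 0.38 without TauT+/+ male 2, the library with the lowest score, and 0.068 without TauT-/- female 1. Without TauT+/+ male 2 the slopes of Ctss, Ctsc and Gusb no longer passed (1.41, 1.04 and 0.50, edgeR adjusted p = 0.0518, 0.0577 and 0.0891), and those of Cln3 and Dnase2a did (0.68 and 0.52, edgeR adjusted p = 0.0490 and 0.0448). Gaa, Arsb and Arsa had the most negative slopes, at −0.36, −0.34 and −0.30, and none of these passed (edgeR adjusted p from 0.346 to 0.399).

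**Figure D3:**
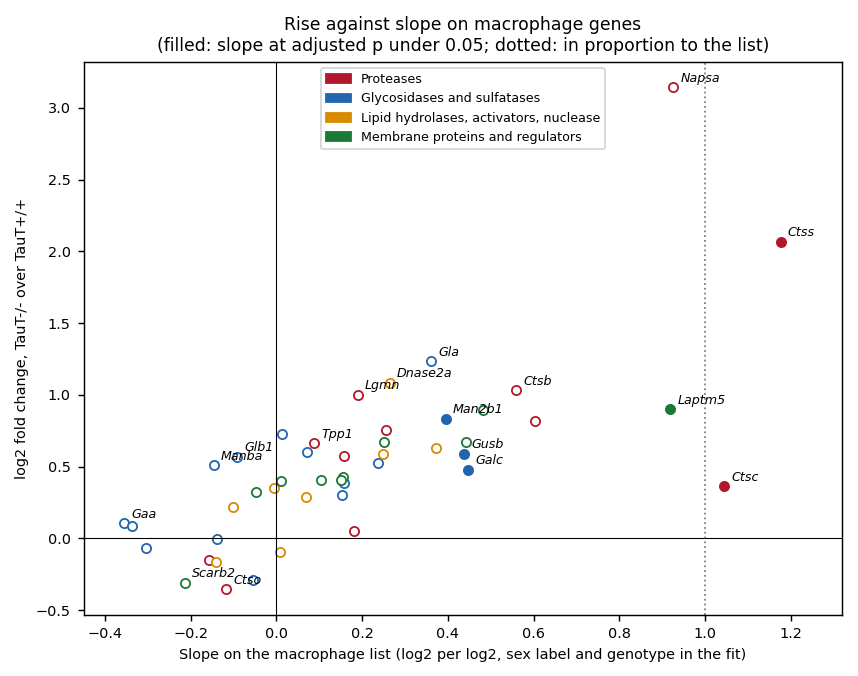
Slope on the macrophage list (x axis, log2 per log2, with sex label and genotype in the fit) against the log2 fold change of TauT-/- over TauT+/+ MSCs (y axis) for the 46 genes, coloured by role. The 6 filled points have a slope past an adjusted p of 0.05, and Ctss, Ctsc, Laptm5 and Napsa sit near the dotted line at 1 while Glb1, Tpp1, Lgmn and Dnase2a, which rose past the threshold, sit between −0.09 and 0.26.

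Over the 15 libraries, 4 of the 7 members that rose had slopes between −0.09 and 0.26. Glb1 had −0.09 (SE 0.07), Tpp1 0.09 (SE 0.12), Lgmn 0.19 (SE 0.09) and Dnase2a 0.26 (SE 0.09). Lgmn and Dnase2a had larger slopes, of 0.38 and 0.52, without TauT+/+ male 2. Both were called when the genotype term was left out (0.47 and 0.55), as were 956 of all 17204 genes with a positive slope. That fit cannot part slope from genotype, since both genes and the score (mean 7.38 against 6.40) were higher in TauT-/- libraries. On Csf1r alone in place of the list, 9 members had a called positive slope (2.56% of all genes), and on Adgre1 alone 10 had (4.39%). Of the genes called on the list, Ctss, Laptm5 and Galc were called on Adgre1 and all 6 on Csf1r. Ctsb, Cln3 and Lipa were called on both single genes and not on the list. Adgre1 spanned a wider range than the list, and slopes on it were smaller in size, with Ctss at 0.62 and Laptm5 at 0.36, against 1.05 and 0.82 on Csf1r. Arsb was the 1 member with a called negative slope, at −0.27 on Adgre1 (edgeR adjusted p = 0.0344). In the 13-library fits 3 and 2 members kept a called slope on the list (2.47% and 1.58% of all genes) and in the 12-library fit 3 (1.92%). Laptm5 and Ctsc were called in each of these, and Ctss in those without TauT-/- male 1.

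With the score in the model, the genotype term of the members was smaller and still mostly positive. 0 of the 46 members were called by edgeR, where 0% of all genes were called higher. 14 members were higher at an unadjusted p under 0.05, against 4.55% of all genes, and 39 of 46 had a positive fold change. The median log2 fold change of the members was 0.31, against 0.49 without the score, and that of all genes was −0.03. Of the 38 members with a positive fold change, 31 had a smaller one, 7 had a larger one and 2 of the 31 turned negative. Ctsc turned from 0.36 to −0.50 and Ctsl from 0.05 to −0.13. Laptm5 went from 0.90 to 0.12, Ctsd from 0.82 to 0.22 and Ctss from 2.07 to 0.96. Lgmn kept 0.82 of its 1.00 (unadjusted p = 0.000114), Dnase2a 0.83 of 1.09 (unadjusted p = 0.000117), Napsa 2.26 of 3.15 (unadjusted p = 0.000178), and Glb1 had 0.66 against 0.57 (unadjusted p = 9.99e-05). The edgeR adjusted p of these 4 in this fit was 0.134 to 0.162. The score was also added to the fits of 13, 13 and 12 libraries and to that of all but TauT+/+ male 2, a choice made after seeing the data. The median log2 fold change of the members was then 0.35, 0.40, 0.35 and 0.26. At an unadjusted p under 0.05, 10, 13, 6 and 11 members were higher, where 2.33%, 2.85%, 1.61% and 6.24% of all genes were. Glb1 had 0.58, 0.65 and 0.63 with the score in the 13, 13 and 12 libraries, against 0.51, 0.56 and 0.54 without it. With the score its edgeR unadjusted p in these fits was 0.00255, 0.00155 and 0.00462, and its edgeR adjusted p was 0.743 or more.

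**Figure D4:**
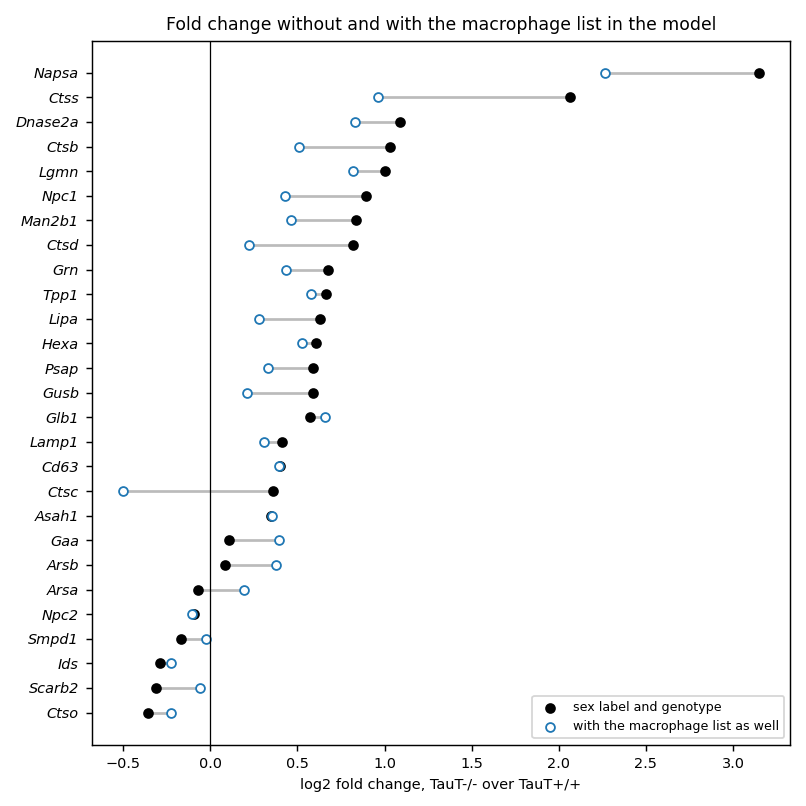
Log2 fold change of TauT-/- over TauT+/+ MSCs (x axis) for 27 named genes (y axis), from the fit with sex label and genotype (black) and from the fit that also holds the macrophage score (open blue). Ctsc crosses 0 to −0.50, Ctss falls back to 0.96, and Glb1 moves up to 0.66.

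Single libraries were then compared at like macrophage scores. TauT-/- male 1 and female 1, the near-identical pair, had macrophage scores of 6.59 and 6.66, within the TauT+/+ range. In these, 19 and 20 of the 46 members were above every TauT+/+ library, 3 and 5 were below every one, and the median log2 ratio to the TauT+/+ median was 0.17 and 0.22. The same counts over all genes were not made, so these have no background to be read against. As a near-identical pair, these libraries may not be 2 separate observations. Glb1 was highest of all libraries in TauT-/- male 1, at 150 CPM, while Ctsc was at 118 CPM, below the TauT+/+ median of 214 CPM. Among the other 6 TauT-/- libraries, with scores of 7.15 to 8.002, the median log2 ratio ran from 0.20 in male 2 to 1.08 in female 4. TauT+/+ male 2 had the lowest score, and its summed macrophage level was 0.169 of the median of the other 6 TauT+/+ libraries. In that library Ctsc was at 0.169 of their median, Ctss at 0.188 and Laptm5 at 0.191. The members as a whole were not so low there, with a median ratio of 0.865, 7 members under 0.5 and 37 between 0.5 and 2. Scarb2 and Ctsh were higher there, at 2.17 and 2.004 times the other TauT+/+ libraries. Whether macrophage RNA has a part in the remaining difference between the genotypes was not tested.

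**Figure D5:**
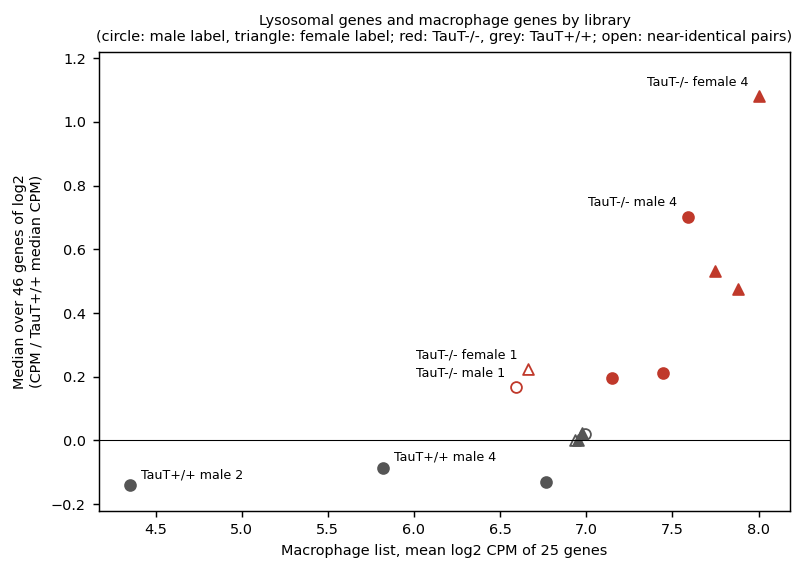
Macrophage score of each library (x axis, mean log2 CPM of 25 genes) against the median over the 46 lysosomal genes of the log2 ratio to the TauT+/+ median (y axis). Red points are TauT-/- and grey points TauT+/+ libraries, circles carry the male and triangles the female label, and open symbols are the near-identical pairs. The 2 open red points lie within the TauT+/+ range of scores at 0.17 and 0.22, and the highest point is TauT-/- female 4 at 1.08.

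Within each sex label the direction was alike, and no member passed. In male-labelled MSCs 37 of 46 members had a positive fold change (median log2 fold change 0.43) and in female-labelled MSCs 38 (median 0.54). edgeR called 0 members under either label. At an unadjusted p under 0.05 there were 15 in male-labelled and 22 in female-labelled MSCs, where 8.62% and 14.6% of all genes were. For the difference between the labels 0 members were called, and 0 had an unadjusted p under 0.05 (1.41% of all genes), which does not show that the effects are equal. Napsa had log2 fold changes of 3.43 (SE 0.63) in male-labelled and 2.80 (SE 0.70) in female-labelled MSCs, Lgmn 0.85 and 1.18, and Dnase2a 0.94 and 1.26. Depth goes with the sex label, so the female-labelled values rest on fewer counts, and the near-identical pairs place a closely alike library under both labels.

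As a description, since all lists were chosen with earlier results of these data known, the 46 genes were compared with 99 other tested lysosomal genes. The 99 were further hydrolases, membrane proteins, subunits of the proton pump, sorting proteins and nutrient-signalling proteins. Of these, 75 had a positive fold change and edgeR called 0. At an unadjusted p under 0.05, 38 were higher and 3 lower, where 10.6% and 13% of all genes were. DESeq2 called 22 of them higher, where 5.65% of all genes were. The median log2 fold change of the 99 genes was 0.23. The proton pump, which acidifies the lumen, had 15 of 17 genes positive with a median of 0.40. Further hydrolases had 21 of 26 positive with a median of 0.20, further membrane proteins 17 of 27 with 0.10, sorting proteins 8 of 14 with 0.18, and nutrient-signalling proteins 14 of 15 with 0.34. Among the members, the 12 with TCACGTG in a promoter window had a median log2 fold change of 0.62, with 11 positive and 2 called, and the 29 without it 0.41, with 23 positive and 4 called. The medians of their slopes on the macrophage list were 0.16 and 0.15.

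Stromal and other marker genes were compared as well. Of the 14 stromal genes, 10 had a negative fold change (median log2 fold change −0.46), and edgeR called 0. At an unadjusted p under 0.05, 1 was higher and 2 lower, which is near the 10.6% and 13% of all genes. DESeq2 called 2 lower (Pdgfra and Pdgfrb), where 6.43% of all genes were. TauT-/- female 4, highest for most of the lysosomal genes, also had the highest summed macrophage level (25500 CPM), neutrophil level (83.0 CPM) and endothelial level (117 CPM). The endothelial genes summed to 9.48 to 19.7 CPM (median 15.9) in TauT+/+ and 14.4 to 117 CPM (median 37.1) in TauT-/- libraries. The sum did not stand for a rise of the whole list. Of the 8 endothelial genes tested, 6 had a positive and 2 a negative fold change, edgeR called 0, and DESeq2 called Kdr alone. Their log2 fold changes ran from −0.60 (Stab2) to 2.14 (Kdr), with a median of 0.39. Vwf and Flt4 had the largest rises after Kdr, and Tek and Esam were positive too. Cdh5 was at 0.09 and Pecam1 at −0.19. The part of these cell types in the lysosomal values was not tested.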

How the data were processed

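RNA of cultured TauT+/+ and TauT-/- MSCs was made into libraries by oligo-dT primed full-length cDNA synthesis. Per the labels and methods, the authors trimmed reads with fastp 0.23.1, mapped them with STAR 2.7.9a to GRCm39 (GENCODE M31) and counted them by strand with featureCounts of Subread 2.0.1. The deposited values are raw counts per gene, with 0 columns left without a sample.

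Counts were analysed in R 4.3.3 with edgeR 4.0.16 (TMM, filterByExpr, quasi-likelihood test, Benjamini-Hochberg over the 17204 genes tested). The biological coefficient of variation was 0.482. DESeq2 1.42.0 was the alternative tool. The standard error is the fold change divided by the root of the F statistic. The macrophage score used a prior count of 2. Gene lengths for levels per kilobase came from GENCODE M39. The statistics were tested on simulated data.

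The members and lists were chosen with earlier results of these data known. Named members were the 3 with the smallest p, the 2 highest per kilobase and the largest fall in each group, all called, and the 3 largest and smallest slopes. Other members were named after their values were seen. Intervals are not given, and counts of amplified cDNA are not independent molecules.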

Additional observations from a re-analysis of the deposited data

Results flagged for a closer look

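In groups of 4 libraries, Dixon's test on log2 CPM found 6 single values far from the other 3 among 81 groups of the named members, where chance gives about 4.05. The gap to the nearest library, as a share of the group's range, was 0.942 for Scarb2, high in TauT+/+ male 2 (266 CPM). Ctss was low in TauT-/- male 1 (271 CPM, gap 0.912). Lipa was high in TauT-/- male 4 (493 CPM, gap 0.892). Gaa and Arsa were both low in TauT+/+ male 3 (219 and 59.2 CPM, gaps 0.858 and 0.845). Lamp1 was low in TauT+/+ male 4 (911 CPM, gap 0.835). TauT+/+ male 2 and TauT-/- male 1 are the library with the lowest macrophage score and a member of a near-identical pair, and their part in these values was not tested.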

How the results depend on the processing

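The number of members called higher was 7 over 15 libraries and 3 to 10 with 1 library left out. It was 3 without TauT+/+ male 2, TauT-/- male 4, TauT+/+ female 1, female 2 or female 3, or TauT-/- female 3, 4 without TauT-/- male 1, male 3, female 2 or female 4, and 10 without TauT+/+ male 3 or TauT-/- female 1. DESeq2 gave 23, no filter on low counts 4, the male-labelled or female-labelled libraries alone 0 each, the 13 libraries 1 with the female-labelled and 3 with the male-labelled of each pair kept, the 12 libraries 0, and the macrophage list as a covariate 0. Upper-quartile scaling gave 8 and moved the median of all genes to −0.03. Over all genes, those called higher numbered 94 over 15 libraries, 8 to 476 with 1 library left out, and 972 by DESeq2. They numbered 32 with no filter, 98 with upper-quartile scaling, and 0 in male-labelled or female-labelled libraries alone. The number of members called lower was 0 throughout, and the members' median log2 fold change stayed positive, at 0.31 to 0.56. A filter of at least 10 counts in every library removed Napsa and left 7 called. Called slopes on the macrophage list numbered 6, and 10 with Adgre1 alone, 15 with no genotype term, 2 in male-labelled and 0 in female-labelled libraries alone, 3 and 2 in the 13-library fits (female-labelled and male-labelled of each pair kept) and 3 in the 12-library fit. With no genotype term 956 of 17204 genes had a called positive slope, and such a slope also holds the difference between the genotypes. With 1 library left out, members with a called slope numbered 2 (without TauT-/- female 1) to 9 (without TauT-/- female 4). In those fits 307 of 17103 and 521 of 17061 genes had a called positive slope. The direction turned under these alternatives for 8 of the 46 members, none of which had passed (Ctsc, Ctsh, Ctsl, Fuca1, Gaa, Arsa, Arsb and Npc2), 5 of them among the 27 named. Npc2 was 0.10 in female-labelled libraries alone, Ctsc −0.50 and Arsa 0.20 with the macrophage list as a covariate. Gaa was −0.040 in the 13 libraries with the female-labelled of each pair kept and −0.10 in the 12 libraries, where Arsb was −0.035. With 1 library left out, Gaa ran from −0.055 (without TauT-/- male 1, and −0.015 without TauT-/- female 1) to 0.20, Arsb from −0.036 (without TauT-/- female 1) to 0.20, and Arsa from −0.18 to 0.015 (without TauT+/+ female 1). In the fits with the macrophage list on 13, 13 and 12 libraries and on all but TauT+/+ male 2, chosen after seeing the data, 0 members were called. The members higher at an unadjusted p under 0.05 numbered 14 over 15 libraries and 6 over 12. Counting these fits, 12 members turned, with Ctso, Galc, Scarb2 and Smpd1 added. The causes were not tested.

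Replicate numbers were not taken as pairs, since 2 of the 7, both female-labelled, did not correlate over 0.1. Deviations from the group means correlated between same-numbered libraries from −0.04 to 0.62, over 0.1 in 5 of 7 pairs. Every male-labelled pair was over 0.1, at 0.28, 0.22, 0.62 and 0.19 for numbers 1 to 4. Whether same-numbered libraries share a batch was not tested. With a replicate block (the number within each sex label), 6 members were called higher, 4 of them among the 7, with a median log2 fold change of 0.38, and 5 slopes were called. Over all 17204 genes, 82 were called higher and 403 had a called positive slope in that fit. Ctss, Glb1 and Man2b1 were no longer called (edgeR adjusted p = 0.0685, 0.0522 and 0.0765), and Ctsa and Gla were. The slopes of Gusb, Galc and Man2b1 were no longer called, and those of Napsa (1.24, edgeR adjusted p = 0.00972) and Cln3 (0.43, edgeR adjusted p = 0.0304) were.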
